A study of Homo sapiens with 9 samples.

Results

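The 54 genes described here act in G2 phase and mitosis. With earlier results of these data known, they were chosen by name from the known machinery of cell division. They comprise mitotic cyclins and kinases, the chromosomal passenger complex, the spindle checkpoint, kinetochore and centromere proteins, kinesins and other spindle proteins, cytokinesis factors, genes of anaphase onset, and TOP2A, MKI67 and FOXM1. Each name matched 1 of the 36810 genes in the expression table. At least 1 FPKM (fragments scaled to gene length and library depth) in at least 3 of the 9 libraries was reached by 52 of them, and these were tested. The polyadenylated RNA came from 143B, a human osteosarcoma cell line made from HOS cells by transformation with the Ki-ras oncogene and deficient in thymidine kinase. Cells at 0 h served as control, and exposure to 0.5 µM XD23, a compound given in the labels by its code name, lasted 24 h or 48 h, with 3 libraries in each of the 3 groups. Neither a vehicle nor cells kept equally long without XD23 are named in the labels, so the compound and time in culture cannot be told apart. Whether libraries of 1 group stem from different cultures is not stated, so p-values measure only the spread between these libraries, which may be technical.

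Genes of this kind are transcribed late in the cell cycle, so that their RNA rises in G2 and mitosis and is low in resting and G1 cells. Cyclin B with CDK1, helped by Polo-like and Aurora kinases, drives entry into mitosis, kinetochores and motor proteins align the chromosomes, and the anaphase-promoting complex then destroys cyclin B and securin. The MuvB core, joined by B-MYB and FOXM1, activates these promoters, and the same core in the DREAM complex represses them through an element called the cell cycle genes homology region, often beside CCAAT boxes bound by NF-Y. In bulk samples such as these, fewer cells in G2 or mitosis and less RNA per cell cannot be told apart.

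The promoter letters of 6 members are shown to let the 2 elements searched for be seen in place. All 6 hold CCAAT, and 5 of the 6 hold TTTGAA, which was found in 26 of the 45 members with a promoter entry, so they are not a typical sample. KIF11 fell after 48 h, KIF4A and NEK2 rose, and CDC20, CKS2 and MKI67 were not called. Capitals mark TTTGAA, the core of the homology region, which reads TTCAAA from the other strand. They also mark CCAAT, which reads as ATTGG from the other strand. In MKI67 a TTTGAA and an ATTGG overlap. Sequences run 5′ to 3′ on the strand of the gene, up to the RefSeq start or the first base that GENCODE 29 gives as an exon (RefSeq, GRCh38.p14).
CDC20 (chr1:43358881-43358954, plus strand): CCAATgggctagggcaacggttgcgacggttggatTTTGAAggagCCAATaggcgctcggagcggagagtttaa
CKS2 (chr9:89311095-89311194, plus strand): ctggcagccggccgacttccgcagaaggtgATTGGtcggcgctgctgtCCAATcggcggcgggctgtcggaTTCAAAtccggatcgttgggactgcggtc
MKI67 (chr10:128126424-128126523, minus strand): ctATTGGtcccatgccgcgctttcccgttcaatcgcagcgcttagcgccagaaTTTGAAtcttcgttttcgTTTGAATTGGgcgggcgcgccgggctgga
KIF11 (chr10:92593030-92593129, plus strand): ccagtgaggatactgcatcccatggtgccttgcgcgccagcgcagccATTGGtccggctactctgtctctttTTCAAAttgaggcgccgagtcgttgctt
KIF4A (chrX:70290004-70290089, plus strand): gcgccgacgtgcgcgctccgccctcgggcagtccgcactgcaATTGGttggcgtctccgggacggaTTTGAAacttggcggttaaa
NEK2 (chr1:211675631-211675721, minus strand): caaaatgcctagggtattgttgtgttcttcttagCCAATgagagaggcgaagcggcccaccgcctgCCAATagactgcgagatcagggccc

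Promoters were found for 45 of the 54 genes, with 55 start sites among them. In the 250 bases before the start, 28 of the 55 held TTTGAA on either strand (50.9%), against 8.8% of 13622 promoters of tested genes and 13.3% of all 35116 promoters. CCAAT stood in 78.2% of them, against 33.0% of the promoters of tested genes. The related TTCGAA was rare everywhere, at 1.82% of member promoters and 1.37% of those of tested genes. Genes of G1/S and DNA replication, a comparison list, held TTTGAA in 1.85% and CCAAT in 55.6% of 54 promoters. Among members called lower at 48 h, 9 of 12 with a promoter entry held TTTGAA, as did 2 of 4 called higher and 14 of 27 not called. NEK2, the member with the highest fold change at 48 h, has CCAAT letters at positions -66 and -34 and no TTTGAA in this window, whereas KIF4A, also called higher, has TTTGAA at -34 and CCAAT at -58. A match of letters is not a measured binding site.

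The libraries held 18341542 to 22901830 fragments, worked out from the FPKM values, and each tested member rested on 289 or more fragments in every library. Of 10 mesenchymal and osteosarcoma markers 8 reached 1 FPKM, and of the markers of epithelial, blood and endothelial cells 1, 0 and 0 did. The third 24 h library stood apart on the second principal component, at 24.7 against -9.06 to 6.96 for the other 8 libraries. It also had lower values for long transcripts, and this touched the mitotic genes strongly; smaller deviations of the same sign were seen in the third 48 h and the first control library. Relative to the other 24 h libraries, the 6 members with 8 kb or more of exons had a median deviation of -0.42 on the log2 scale, and the 15 members under 3 kb one of 0.10, while over all tested genes the same medians were -0.13 and 0.09. MKI67, with 12.8 kb of exons, stood at 42.4 and 42.1 FPKM in the first and second 24 h libraries and at 21.7 FPKM in the third, and CENPF at 31.8, 31.6 and 18.6 FPKM. INCENP and FOXM1, of middling length, deviated by -0.45 and -0.35. Others went the other way, with CDK1 (3.9 kb) at 0.23 and MAD2L1 (5.5 kb) at 0.20. BUB3 (8.2 kb) was the only member of 8 kb or more to deviate upward, by 0.13. In the third 48 h library the members of 8 kb or more deviated by -0.17 and those under 3 kb by 0.08, and in the first control library by -0.09 and 0.08. Across the 52 members, deviation and length correlated at r = -0.71, -0.72 and -0.67 in these 3 libraries and at 0.16 to 0.65 in the other 6, a description over genes that share a library. With the dependence on exon length removed from each library, an alternative chosen after seeing the data, 0 members were called at 24 h, and 10 lower and 6 higher at 48 h. Over all tested genes the same step gave 0 calls at 24 h, and 1955 lower and 2107 higher at 48 h. SPC25, KIF23 and AURKA then lost their 48 h calls and DLGAP5 gained one (0.09, adjusted p = 0.0495).

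**Figure D1:**
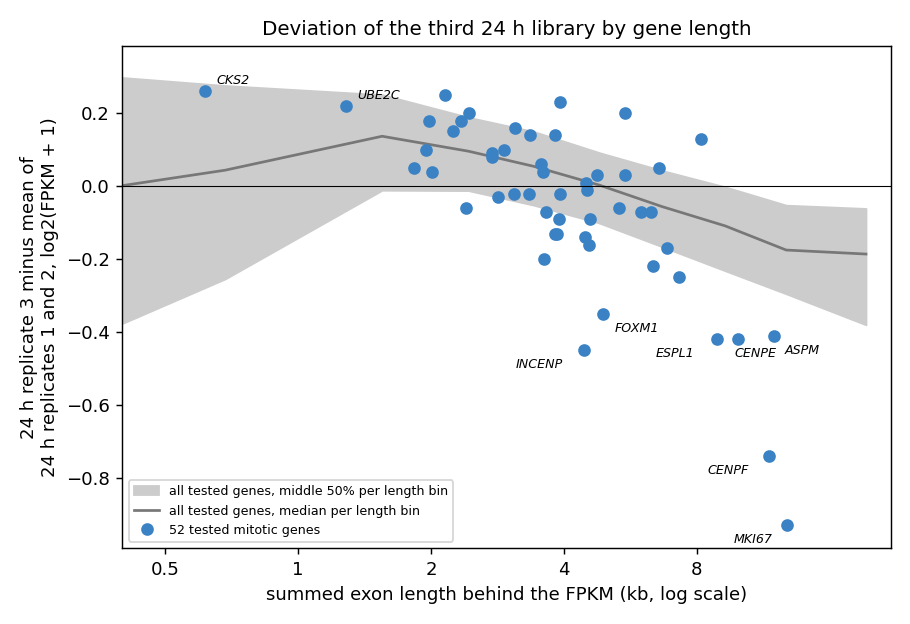
Deviation of the third 24 h library from the mean of the first and second (y axis, log2(FPKM + 1)) against summed exon length in kb (x axis, log scale) for the 52 tested mitotic genes (points), with the median and middle 50% of all tested genes per length bin (line and band). MKI67 (-0.93) and CENPF (-0.74) lie lowest, below the band for genes of their length.

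These genes were strongly expressed. The median control level of the 52 tested members was 29.0 FPKM, against 5.29 FPKM over all 13657 tested genes, and all 52 lay above that median. UBE2C, the ubiquitin-conjugating enzyme of the anaphase-promoting complex, was highest at 125.2 ± 5.08 FPKM (SD, n = 3), followed by TOP2A (106.0 ± 2.22 FPKM), TPX2 (99.8 ± 3.08 FPKM) and CDC20 (93.2 ± 2.43 FPKM). The control values of neighbours among these 4 genes did not overlap. ESPL1, which encodes separase, was the lowest tested member at 5.78 ± 0.0931 FPKM. The FPKM of all 54 genes summed to between 1841.3 and 1896.1 in the control libraries, 1732.8 and 1761.9 at 24 h, and 1793.9 and 1840.5 at 48 h.

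After 24 h most members lay slightly below control and none was called. Of 52 tested members, 49 had a negative log2 fold change, and the median was -0.10 with a range of -0.26 to 0.13; over all tested genes 57.3% were negative and the median was -0.02. Calls were made with limma at an adjusted p under 0.05: 0 members were called in either direction, in a comparison where 0.00732% of all tested genes were called (1 gene, lower). At an unadjusted p under 0.05, 14 members were lower and 0 higher, where 4.66% and 2.78% of all tested genes were. All 3 values at 24 h lay below all 3 controls for 18 members, where 8.38% of all tested genes did so, and above them for 0 members, where 4.81% did. Left without the third 24 h library, the members had a median of -0.08 with 49 negative and still 0 calls. In that fit 0 of all tested genes were called. The count of negative members moved in other settings. It was 43 without the first 24 h library, 46 without control replicate 1 and 50 without control replicate 2. Under median-of-ratios scaling it was 45.

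After 48 h members were called in both directions, as were all tested genes. Of the 52 tested members 13 fell, 5 rose and 34 were not called, so that 34.6% were called, where 28.5% of all tested genes were called (15.2% lower and 13.3% higher). The share of members that fell was 25.0%. The median log2 fold change was -0.06, with a range of -0.37 to 0.25, against -0.02 over all tested genes. The 48 h values lay below all controls for 22 members (27.7% of all tested genes) and above them for 5 (22.7%). Under median-of-ratios scaling of the libraries the split was 8 lower and 5 higher. Over all tested genes that scaling gave 1788 lower and 2030 higher, after 2080 and 1811 in the main fit. When each library was left out in turn, between 6 and 18 members were called lower and between 1 and 5 higher. Over all tested genes these counts moved too, from 1371 to 2771 lower and from 1213 to 2361 higher. Their lowest values came without 48 h replicate 2 and their highest without the third 24 h library. Of the member counts, the 18 came from leaving out the third 24 h library and the 6 from leaving out control replicate 1 or 48 h replicate 2. Leaving out 48 h replicate 1 and control replicate 3 gave 7 and 8 lower. For the genes that rose, leaving out any 1 control or the first or second 48 h library left 1 call, and leaving out the third 48 h library left 2.

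The 24 h and 48 h comparisons share the control libraries, so the difference between them was tested directly as 48 h against 24 h. In that comparison 6 members were lower and 7 higher, 25.0% in all, where 32.3% of all tested genes were called (16.3% lower and 16% higher). SPC24, CKS1B, MAD2L1, CDCA8, KIF11 and ECT2 were lower at 48 h than at 24 h, and DLGAP5, RACGAP1, CCNB1, HMMR, UBE2C, KIF4A and NEK2 were higher. All 48 h values lay below all 24 h values for 8 members and above them for 13, where 23.1% and 23.1% of all tested genes did so. After quantile normalization the split was 3 lower and 8 higher, where all tested genes had 2216 and 2248 such calls. With the dependence on exon length removed it was 4 lower and 11 higher, where all tested genes had 2219 and 2324. The main fit gave 2227 and 2188 over all tested genes. Leaving out the first 24 h library left 3 lower calls (2011 over all tested genes). Leaving out the first or second 48 h library left 2 (1666 and 1487 over all tested genes).

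**Figure D2:**
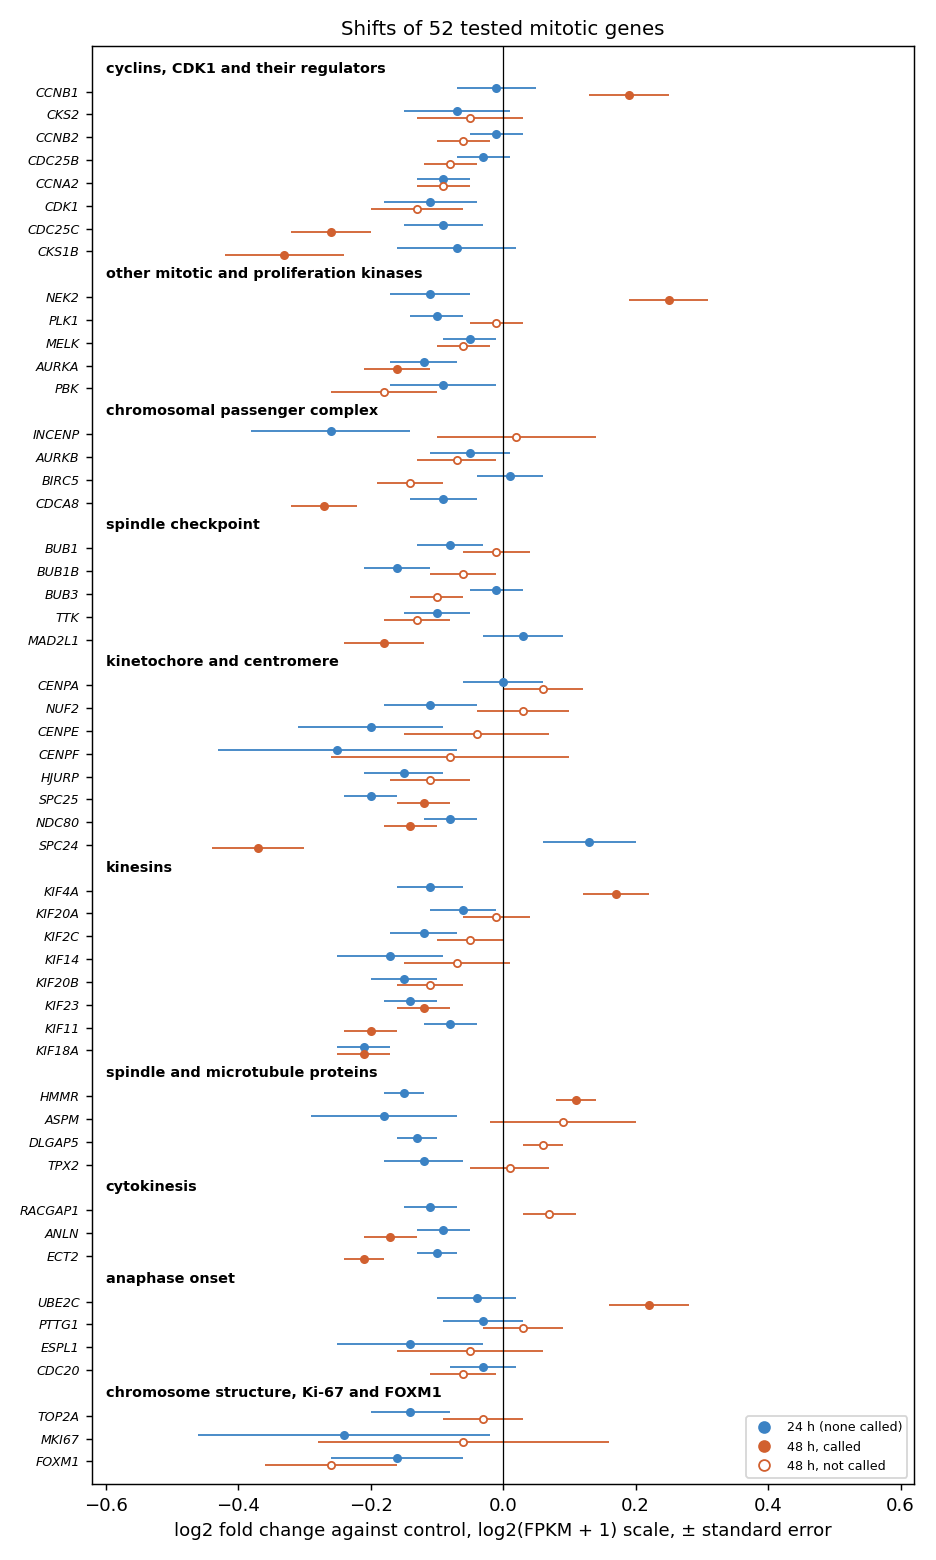
Log2 fold change against control (x axis, log2(FPKM + 1) scale, bars ± standard error) at 24 h (blue) and 48 h (orange; filled where called at an adjusted p under 0.05, open where not) for the 52 tested genes, in their subgroups. At 24 h 49 of 52 lie left of 0; at 48 h they range from -0.37 (SPC24) to 0.25 (NEK2).

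Among cyclins, CDK1 and their regulators, CCNB1 rose and CDC25C and CKS1B fell at 48 h, while the other 5 of 8 were not called. At 48 h 15.2% of all tested genes were called lower and 13.3% higher. With 3 to 8 tested genes each, the counts of this and the following subgroups are not read as traits. CCNB1 encodes cyclin B1, the activating partner of CDK1 at mitotic entry (ENSG00000134057, chromosome 5, 69167010 to 69178245, plus strand, GRCh38). It stood at 87.5, 81.7 and 83.5 FPKM in the control libraries, 79.2, 80.4 and 91.8 FPKM at 24 h, and 95.2, 95.8 and 96.6 FPKM at 48 h. Every 48 h library lay above every other library, and the 24 h values straddled the controls. The log2 fold change was 0.19 ± 0.06 (SE) at 48 h (limma, adjusted p = 0.0382), after -0.01 ± 0.06 at 24 h (adjusted p = 0.976). Leaving out any 1 of the 6 control or 48 h libraries ended the 48 h call (adjusted p 0.0546 to 0.117), and the call against 24 h (0.20, adjusted p = 0.0282) ended without the first or second 24 h library or any 48 h library (0.0666 to 0.0898).

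CCNB2, which encodes cyclin B2, did not follow cyclin B1 past the threshold, with means of 36.6 ± 1.08, 36.3 ± 1.59 and 35.0 ± 0.722 FPKM (SD, n = 3) at 0, 24 and 48 h and a log2 fold change of -0.06 ± 0.04 (adjusted p = 0.293). CDK1, the kinase itself, read 50.2, 45.3 and 48.9 FPKM in control, 41.2, 43.3 and 49.7 FPKM at 24 h and 43.9, 41.9 and 45.6 FPKM at 48 h. These groups overlapped, and CDK1 was not called at 48 h (-0.13 ± 0.07, adjusted p = 0.202). CDC25C, a phosphatase that activates CDK1, fell from 9.95 ± 0.167 to 8.14 ± 0.655 FPKM, without overlap with control (-0.26 ± 0.06, adjusted p = 0.0133; 0.053 without 48 h replicate 2). CKS1B, a small CDK-binding subunit, read 15.6, 13.7 and 13.8 FPKM in control, 13.1, 13.0 and 14.9 FPKM at 24 h and 10.3, 10.6 and 12.8 FPKM at 48 h. All of its 48 h values lay below all control and all 24 h values. The change was -0.33 ± 0.09 relative to control (adjusted p = 0.0213) and -0.26 ± 0.09 relative to 24 h (adjusted p = 0.0493). Leaving out control replicate 1, 48 h replicate 1 or 48 h replicate 2 removed the former call (0.0739 to 0.0779). The latter ended when any library other than 48 h replicate 3 was left out (0.0504 to 0.152). CKS1B has 5 pseudogenes named after it in the table, at up to 2.81 FPKM, so its reads could be split among copies. CCNA2, which encodes cyclin A2, and the phosphatase gene CDC25B had 48 h log2 fold changes of -0.09 and -0.08 without a call. The relative of CKS1B, CKS2, stood at 86.1 ± 5.25 and 83.0 ± 5.43 FPKM at 0 and 48 h (-0.05 ± 0.08, adjusted p = 0.672).

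Of 5 further mitotic and proliferation kinases, NEK2 rose, AURKA fell and PLK1, MELK and PBK were not called at 48 h. The shares over all tested genes were 13.3% higher and 15.2% lower. NEK2 encodes a kinase that separates the centrosomes before mitosis (ENSG00000117650, chromosome 1, 211658657 to 211675630, minus strand). Its values were 12.5, 12.1 and 12.2 FPKM in control, 10.5, 11.2 and 12.3 FPKM at 24 h and 14.8, 14.1 and 15.6 FPKM at 48 h. The 48 h libraries lay above all others, and the 24 h values overlapped the controls. NEK2 rose by 0.25 ± 0.06 from control to 48 h (adjusted p = 0.0124) and by 0.36 ± 0.06 from 24 h to 48 h (adjusted p = 0.00195), and both calls were made in all 21 alternative fits. AURKA, the Aurora A kinase of centrosome maturation and spindle assembly, read 71.3, 65.3 and 66.2 FPKM in control, 60.9, 60.3 and 64.9 FPKM at 24 h and 58.0, 60.7 and 62.0 FPKM at 48 h. It lay below all controls at both times (-0.16 ± 0.05 at 48 h, adjusted p = 0.0319; -0.12 ± 0.05 at 24 h, adjusted p = 0.644). Leaving out control replicate 1, control replicate 3, 48 h replicate 1 or 48 h replicate 2 removed the 48 h call of AURKA (0.0613 to 0.111). PLK1, the Polo-like kinase, was 20.3, 20.2 and 19.6 FPKM in control, 17.7, 19.2 and 18.9 FPKM at 24 h and 20.2, 20.2 and 19.4 FPKM at 48 h. The 24 h values of PLK1 thus lay below both other groups without a call in any comparison (-0.10 ± 0.04 at 24 h, adjusted p = 0.649; -0.01 ± 0.04 at 48 h, adjusted p = 0.899; 0.09 ± 0.04 for 48 h against 24 h, adjusted p = 0.118). MELK, a kinase of proliferating cells, had a 48 h log2 fold change of -0.06 (adjusted p = 0.324). PBK, a kinase active in mitosis, stood at 37.0 ± 2.55 and 32.6 ± 1.11 FPKM at 0 and 48 h (-0.18 ± 0.08, adjusted p = 0.12), and was called only with array weights, in a fit to the groups compared alone, or without the third 24 h library (adjusted p = 0.0271).

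**Figure D3:**
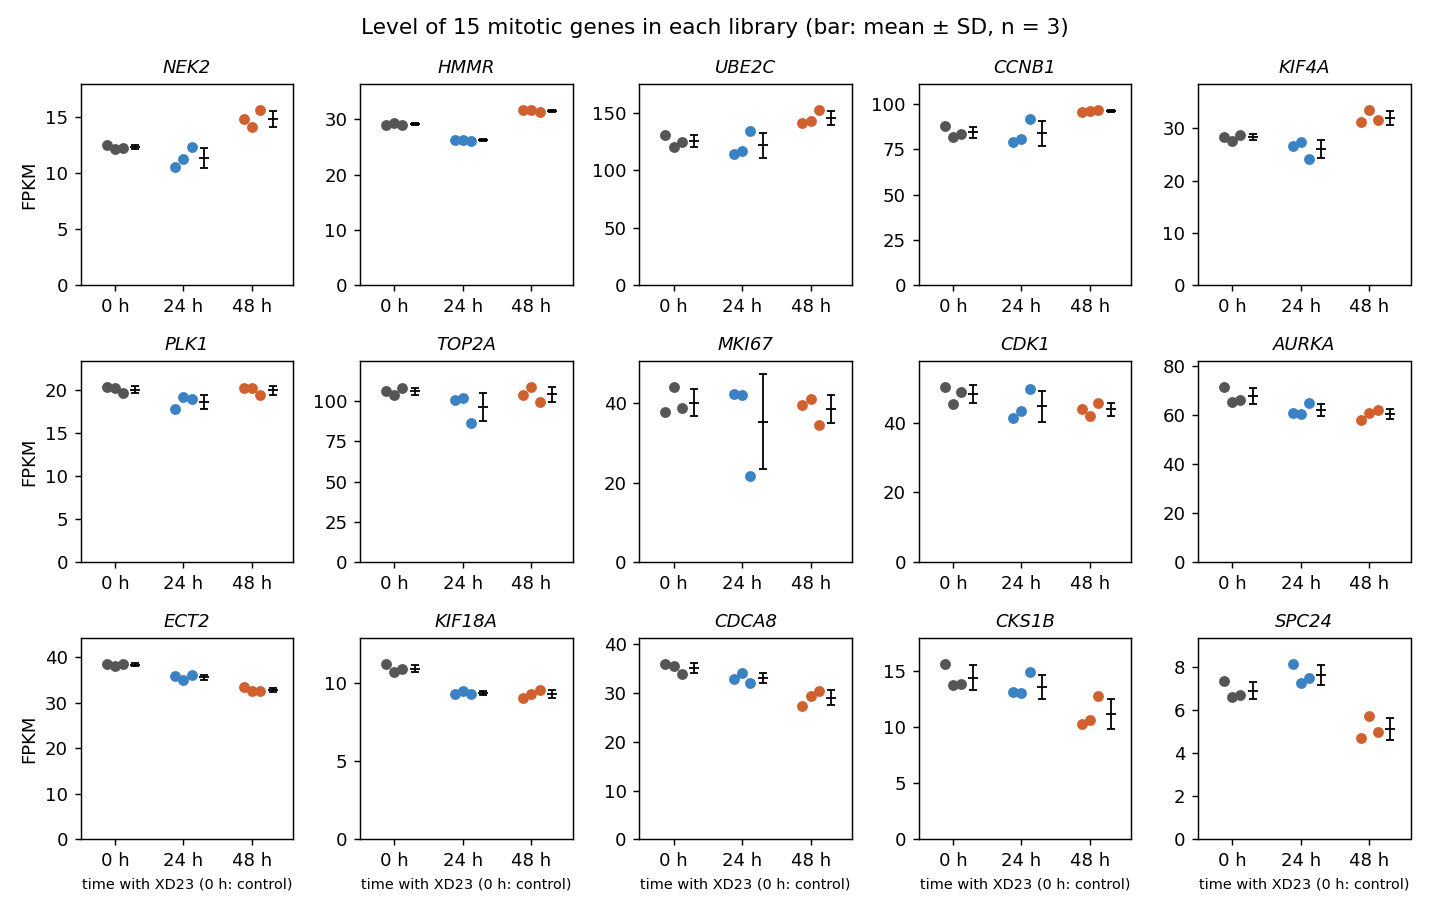
FPKM (y axis, from 0, a scale of its own per gene) in each of the 9 libraries for 15 genes at 0 h (control), 24 h and 48 h with XD23, with the mean ± SD of 3 libraries beside the points. NEK2 rose and SPC24 fell at 48 h, PLK1 was not called, and the third 24 h library of MKI67 stands at 21.7 FPKM.

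The chromosomal passenger complex joins Aurora B to INCENP, survivin and borealin and corrects wrong attachments of chromosomes to the spindle. Of the 4 genes only 1 fell at 48 h, where 15.2% of all tested genes did. This was CDCA8, which encodes borealin (ENSG00000134690, chromosome 1, 37692418 to 37709719, plus strand). It read 35.9, 35.5 and 33.9 FPKM in control, 32.8, 34.0 and 32.0 FPKM at 24 h and 27.4, 29.3 and 30.4 FPKM at 48 h. The 48 h values lay below all others, and the fall of -0.27 ± 0.05 (adjusted p = 0.00364) was called in all 21 alternatives. CDCA8 was also lower at 48 h than at 24 h (-0.18 ± 0.05, adjusted p = 0.019), a call that ended without 24 h replicate 2 (0.0653) or 48 h replicate 1 (0.0641). AURKB itself gave 29.0 ± 1.45, 28.0 ± 1.79 and 27.6 ± 1.21 FPKM (SD, n = 3) at 0, 24 and 48 h, and was not called (-0.07 ± 0.06 at 48 h, adjusted p = 0.437). BIRC5, which encodes survivin, had 48 h values of 18.2, 18.3 and 19.4 FPKM, which before rounding lay below all controls (21.3, 19.4 and 21.3 FPKM), and missed the threshold (-0.14 ± 0.05, adjusted p = 0.0877; 0.0338 without the third 24 h library and 0.024 with array weights). INCENP, the scaffold, stood at 12.4 ± 0.929 and 12.6 ± 0.939 FPKM at 0 and 48 h (0.02 ± 0.12, adjusted p = 0.916). Its 24 h values of 11.3, 11.4 and 8.02 FPKM were lowest in the library that stands apart, and the 24 h log2 fold change of -0.26 ± 0.12 (adjusted p = 0.678) was -0.11 without it.

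In the spindle checkpoint, which delays anaphase until every chromosome is attached, 1 of 5 genes fell at 48 h. The share over all tested genes was 15.2%. MAD2L1, whose protein MAD2 blocks CDC20, read 18.1, 17.4 and 17.2 FPKM in control, 16.9, 17.2 and 19.7 FPKM at 24 h and 15.2, 15.4 and 15.4 FPKM at 48 h. The 48 h values lay below all others and close together. The 48 h change of MAD2L1 was -0.18 ± 0.06 relative to control (adjusted p = 0.0385) and -0.21 ± 0.06 relative to 24 h (adjusted p = 0.0193). The former call ended without any 1 of the 6 libraries compared (0.0733 to 0.123), and the latter without 48 h replicate 1 or 2 (0.0568 and 0.0553). BUB1, a checkpoint kinase, gave means of 21.9 ± 0.276, 20.6 ± 0.638 and 21.8 ± 1.6 FPKM (SD, n = 3) at 0, 24 and 48 h, with a 48 h log2 fold change of -0.01 ± 0.05 (adjusted p = 0.913). BUB1B, BUB3 and TTK had 48 h log2 fold changes of -0.06, -0.10 and -0.13 without a call, and BUB3 was called without the third 24 h library (adjusted p = 0.0219), with array weights (0.0242) and in a fit to the groups compared alone (0.0354). TTK was called with array weights (adjusted p = 0.0365).

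At the kinetochore and centromere, 3 of 8 genes fell at 48 h and 5 were not called, where 15.2% of all tested genes fell. The 3 were NDC80, SPC24 and SPC25, all subunits of the NDC80 complex, which binds microtubules at the outer kinetochore. SPC24 had the lowest 48 h fold change of all 52 tested members (ENSG00000161888, chromosome 19, 11131520 to 11155808, minus strand). It read 7.36, 6.63 and 6.72 FPKM in control, 8.14, 7.27 and 7.5 FPKM at 24 h and 4.71, 5.71 and 5.01 FPKM at 48 h. The 48 h libraries lay below all others, and the 24 h values overlapped the controls from above. SPC24 changed by 0.13 ± 0.07 at 24 h (adjusted p = 0.725), by -0.37 ± 0.07 at 48 h (adjusted p = 0.00536) and by -0.49 ± 0.07 between the times (adjusted p = 0.00104). Both calls of SPC24 were made in all 21 alternatives. NDC80 fell from 40.2 ± 0.94 to 36.3 ± 0.753 FPKM (-0.14 ± 0.04, adjusted p = 0.02; 0.0611 to 0.0736 without control replicate 1, control replicate 3, 48 h replicate 1 or 48 h replicate 2). SPC25 fell from 16.5 ± 0.307 to 15.1 ± 0.0716 FPKM (-0.12 ± 0.04, adjusted p = 0.0409). That SPC25 call ended without any 1 of the 6 libraries compared (0.0686 to 0.128) and in 12 of 21 alternatives in all. SPC25 had stood lower still at 24 h, at 14.6, 13.6 and 14.6 FPKM, without a call (-0.20 ± 0.04, adjusted p = 0.3).

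The fourth subunit of that complex, NUF2, was not called, with control and 48 h means of 14.8 ± 0.761 and 15.2 ± 0.276 FPKM (0.03 ± 0.07, adjusted p = 0.774). CENPA, the histone H3 variant that marks centromeres, had the highest 48 h fold change of this subgroup and was not called, with 15.7, 15.0 and 15.0 FPKM in control, 13.7, 16.0 and 16.0 FPKM at 24 h and 15.2, 16.0 and 16.6 FPKM at 48 h (0.06 ± 0.06, adjusted p = 0.503). All 3 of its groups overlapped. HJURP, the chaperone that loads CENPA, stood at 43.1 ± 1.55 and 39.8 ± 1.67 FPKM at 0 and 48 h (-0.11 ± 0.06, adjusted p = 0.182). CENPE, a kinetochore motor, and CENPF, a large kinetochore protein, had log2 fold changes of -0.20 and -0.25 at 24 h, which were -0.06 and -0.01 without the third library.

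Of 8 kinesins, motors that move along microtubules, KIF11, KIF18A and KIF23 fell and KIF4A rose at 48 h. Over all tested genes 15.2% fell and 13.3% rose. KIF11, which pushes the spindle poles apart and whose promoter is printed above, read 31.4, 29.8 and 30.9 FPKM in control, 29.4, 29.3 and 28.1 FPKM at 24 h and 26.2, 26.4 and 27.2 FPKM at 48 h. The 3 groups of KIF11 did not overlap. It changed by -0.20 ± 0.04 at 48 h (adjusted p = 0.00405, a call made in all 21 alternatives) and by -0.12 ± 0.04 between 24 h and 48 h (adjusted p = 0.0361), the latter lost without control replicate 3, 24 h replicate 1 or 2, or 48 h replicate 1 or 2 (0.0585 to 0.109). KIF18A, which shortens the swings of chromosomes at metaphase, read 11.2, 10.7 and 10.9 FPKM in control, 9.28, 9.49 and 9.29 FPKM at 24 h and 9.06, 9.27 and 9.55 FPKM at 48 h. Both later groups lay below all controls and overlapped each other. Its log2 fold change was -0.21 ± 0.04 at both times, called at 48 h in all 21 alternatives (adjusted p = 0.00319) and not called at 24 h (adjusted p = 0.269). KIF23, a motor of the central spindle, fell from 22.5 ± 0.712 to 20.6 ± 0.415 FPKM (-0.12 ± 0.04, adjusted p = 0.048), a call lost when any 1 control or 48 h library or 24 h replicate 2 was left out (0.0681 to 0.163).

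KIF4A, which binds chromosome arms and the central spindle, was the kinesin that rose (ENSG00000090889, chromosome X, 70290090 to 70420832, plus strand). It read 28.4, 27.6 and 28.7 FPKM in control, 26.7, 27.3 and 24.1 FPKM at 24 h and 31.1, 33.5 and 31.5 FPKM at 48 h. Its 24 h values lay below and its 48 h values above all controls. The log2 fold changes were -0.11 ± 0.05 at 24 h (adjusted p = 0.674), 0.17 ± 0.05 at 48 h (adjusted p = 0.0347) and 0.29 ± 0.05 between the times (adjusted p = 0.00334). The difference between 24 h and 48 h was called in all 21 alternatives, while the call against control ended without any 1 of the 6 libraries compared (0.055 to 0.12). KIF2C, KIF14, KIF20A and KIF20B were not called at 48 h, at -0.05, -0.07, -0.01 and -0.11, and KIF20B was called without the third 24 h library (adjusted p = 0.0382) and in a fit to the groups compared alone (0.0441).

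Spindle and microtubule proteins had the highest median of the 10 subgroups at 48 h, 0.07, after -0.14 at 24 h. With 4 tested genes this rank is not read as a trait. Without the third 24 h library the 24 h changes of ASPM and TPX2 were -0.04 and -0.06, after -0.18 and -0.12 with it. HMMR and DLGAP5 each stood at -0.14 without it. Of the 4 tested genes 1 was called at 48 h, where 28.5% of all tested genes were. HMMR, a hyaluronan receptor that also organises spindle poles, read 28.9, 29.3 and 29.0 FPKM in control, 26.3, 26.3 and 26.0 FPKM at 24 h and 31.7, 31.6 and 31.3 FPKM at 48 h. As with KIF4A, its 24 h group lay below and its 48 h group above the controls without overlap. HMMR changed by -0.15 ± 0.03 at 24 h (adjusted p = 0.3), by 0.11 ± 0.03 at 48 h (adjusted p = 0.0203) and by 0.26 ± 0.03 between the times (adjusted p = 0.000344). The last of these was called in all 21 alternatives, and the 48 h call against control ended without any 1 control or without 48 h replicate 1 or 2 (0.0538 to 0.0717). DLGAP5, which stabilises spindle microtubules near chromosomes, was lowest at 24 h, at 46.3 ± 0.832 FPKM against 50.7 ± 0.907 FPKM in control and 52.7 ± 1.22 FPKM at 48 h (SD, n = 3). Its rise from 24 h to 48 h was 0.18 ± 0.03 (adjusted p = 0.0035, called in all 21 alternatives), and it was not called against control (0.06 ± 0.03, adjusted p = 0.253). TPX2, the activator of Aurora A at the spindle, read 100.3, 102.6 and 96.5 FPKM in control, 94.2, 97.8 and 83.4 FPKM at 24 h and 97.9, 99.4 and 105.4 FPKM at 48 h. TPX2 was not called in any comparison (0.01 ± 0.06 at 48 h, adjusted p = 0.88), and neither was ASPM, a spindle pole protein (0.09 ± 0.11, adjusted p = 0.59).

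NUSAP1 and PRC1, which bundle spindle microtubules, did not reach the filter and were not tested. NUSAP1 stood between 0.218 and 0.468 FPKM and PRC1 between 0.24 and 0.515 FPKM in the 9 libraries. In GENCODE 29, 62.2% of the exon bases of NUSAP1 and 57.6% of those of PRC1 are shared with another protein-coding gene on the same strand, and the one that overlaps PRC1 was at 0.86 FPKM in control. Whether the counting left out shared reads was not tested, so the low values of NUSAP1 and PRC1 are not read as levels of these genes.

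Of 3 cytokinesis genes, ECT2 and ANLN fell at 48 h, where 15.2% of all tested genes fell. ECT2, the exchange factor that activates RhoA at the cleavage plane (ENSG00000114346, chromosome 3, 172750682 to 172821474, plus strand), read 38.5, 38.1 and 38.5 FPKM in control, 35.8, 35.1 and 36.1 FPKM at 24 h and 33.4, 32.7 and 32.6 FPKM at 48 h. The groups of ECT2 stepped down without overlap. It changed by -0.10 ± 0.03 at 24 h (adjusted p = 0.536), by -0.21 ± 0.03 at 48 h (adjusted p = 0.00122, called in all 21 alternatives) and by -0.11 ± 0.03 between the times (adjusted p = 0.0222). The last call ended without 24 h replicate 1 or 48 h replicate 2 or 3 (0.0543 to 0.071). ANLN, the anillin scaffold of the contractile ring, fell from 47.8 ± 1.84 to 42.2 ± 1.58 FPKM (-0.17 ± 0.04, adjusted p = 0.0179; 0.0571 to 0.0704 without control replicate 1 or 2 or 48 h replicate 3). RACGAP1, the partner of KIF23 in the complex that recruits ECT2, read 28.8, 27.7 and 27.9 FPKM in control, 26.0, 25.8 and 26.0 FPKM at 24 h and 28.3, 30.1 and 30.7 FPKM at 48 h. The 24 h group of RACGAP1 lay below both others. It rose by 0.19 ± 0.04 from 24 h to 48 h (adjusted p = 0.00605, called in all 21 alternatives) and was not called against control at 48 h (0.07 ± 0.04, adjusted p = 0.181).

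At anaphase onset, UBE2C rose at 48 h and CDC20, PTTG1 and ESPL1 were not called, where 13.3% of all tested genes rose. UBE2C (ENSG00000175063, chromosome 20, 45812576 to 45816957, plus strand) read 130.6, 120.5 and 124.4 FPKM in control, 114.5, 116.7 and 134.4 FPKM at 24 h and 140.9, 143.1 and 152.5 FPKM at 48 h. The 48 h values lay above all others, and 24 h replicate 3 was the highest outside that group. UBE2C changed by 0.22 ± 0.06 at 48 h (adjusted p = 0.0358) and by 0.26 ± 0.06 between 24 h and 48 h (adjusted p = 0.0159). The call against control ended without any 1 of the 6 libraries compared (0.0523 to 0.112), and that against 24 h without 24 h replicate 2 (0.0551) or 48 h replicate 3 (0.0557). UBE2C is short, at 1.3 kb of exons, and has 4 pseudogenes named after it at up to 2.35 FPKM. CDC20, the activator of the anaphase-promoting complex and the lowest of this subgroup at 48 h, read 95.4, 93.7 and 90.6 FPKM in control, 90.1, 91.0 and 93.2 FPKM at 24 h and 89.1, 84.7 and 95.4 FPKM at 48 h. All groups of CDC20 overlapped (-0.06 ± 0.05 at 48 h, adjusted p = 0.404). PTTG1, which encodes securin, stood at 69.6 ± 0.718 and 71.2 ± 4.02 FPKM at 0 and 48 h (0.03 ± 0.06, adjusted p = 0.758), and ESPL1 had a 48 h log2 fold change of -0.05 ± 0.11 (adjusted p = 0.773).

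The widely used proliferation markers TOP2A and MKI67 and the transcription factor FOXM1 were not called at either time. TOP2A, the topoisomerase that untangles sister chromatids, read 106.3, 103.7 and 108.1 FPKM in control, 100.6, 101.5 and 86.4 FPKM at 24 h and 103.9, 108.6 and 99.4 FPKM at 48 h (-0.03 ± 0.06 at 48 h, adjusted p = 0.771). Its 24 h values lay below all controls, and its 48 h values overlapped them. MKI67, which encodes Ki-67, read 37.8, 44.1 and 38.7 FPKM in control and 39.7, 41.2 and 34.6 FPKM at 48 h (-0.06 ± 0.22, adjusted p = 0.863). At 24 h MKI67 changed by -0.24 ± 0.22 (adjusted p = 0.833) with all libraries and by 0.07 without the third. FOXM1, an activator of many of these genes, read 12.3, 13.1 and 11.5 FPKM in control, 11.8, 11.9 and 9.1 FPKM at 24 h and 10.7, 10.1 and 9.46 FPKM at 48 h. The 48 h values of FOXM1 lay below all controls and the call was missed (-0.26 ± 0.10, adjusted p = 0.0748). FOXM1 was called lower at 48 h in 5 of the alternatives: without the third 24 h library (adjusted p = 0.00858), in a fit to the groups compared alone (0.0164), with array weights (0.0189), with the replicate block (0.0221) and with voom weights (0.0393). It was called lower than at 24 h without the third 24 h library (-0.21, adjusted p = 0.0332) and with array weights (-0.19, adjusted p = 0.0355). FOXM1 shares 15.9% of its exon bases with ITFG2 on the opposite strand, whose control and 48 h means were 2.3 and 2.2 FPKM. Strand handling in the counting is not stated, so reads on those bases cannot be told apart.

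Other genes of mitosis, from lists chosen by function with earlier results of these data known, fell more than they rose at 48 h. Of 101 tested, 46 fell, 1 rose and 54 were not called, where 15.2% of all tested genes fell and 13.3% rose, with a median log2 fold change of -0.16, beside 13, 5 and 34 of the 52 described above and their median of -0.06. At 24 h their median was -0.04. By list, 9 of 14 outer kinetochore and checkpoint genes fell, as did 9 of 14 of mitotic entry and exit control, 8 of 18 of the anaphase-promoting complex and related ligases, 7 of 14 of the constitutive centromere network, 5 of 20 of spindle, kinesins and centrosome, 4 of 12 of condensin and cohesion and 4 of 9 of cytokinesis. The lowest were CDC25A, a phosphatase of S phase entry that also stands in the G1/S list (-0.78 ± 0.07, adjusted p = 0.000115), GMNN, which encodes the licensing inhibitor geminin (-0.68 ± 0.09, adjusted p = 0.000851), and CENPM of the centromere network (-0.57 ± 0.11, adjusted p = 0.00589). The gene that rose was GPSM2, which orients the spindle (0.19 ± 0.05, adjusted p = 0.0178; 0.0678 at most when control replicate 1 or 2 or 48 h replicate 2 was left out). The next highest called genes both fell, PPP2R2A, a phosphatase subunit of mitotic exit (-0.14 ± 0.04), and DEPDC1 (-0.16 ± 0.05). The PPP2R2A call was lost without any 1 control, 24 h replicate 2 or 48 h replicate 1 or 2 (adjusted p up to 0.12), and that of DEPDC1 without control replicate 1 or 2 or any 1 of the 48 h libraries (up to 0.125).

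In the comparison list of G1/S and DNA replication, 41 of 52 genes fell and 11 were not called at 48 h, with a median of -0.38. The share that fell over all tested genes was 15.2%. From 24 h to 48 h, 44 of the 52 genes in this list were lower and 8 not called, with a median of -0.44. The 52 mitotic genes had 6 lower, 7 higher and a median of 0.04, where 16.3% of all tested genes were lower and 16% higher. At 24 h the median of the G1/S list was 0.04 and that of the mitotic genes -0.10. Differences between lists were not tested, and the lists were chosen with earlier results of these data known. The plot of cumulative shares shows both times.

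**Figure D4:**
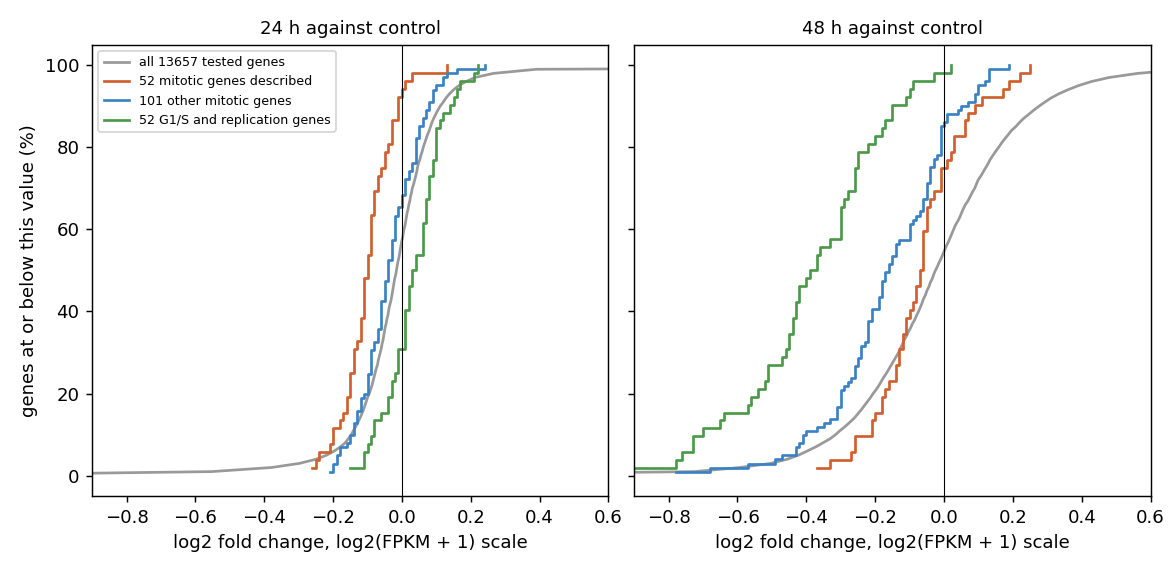
Share of genes (y axis, %) at or below each log2 fold change against control (x axis, log2(FPKM + 1) scale) at 24 h (left) and 48 h (right) for the 52 mitotic genes described, 101 other mitotic genes, 52 G1/S and replication genes and all 13657 tested genes. The medians of the mitotic genes described were -0.10 and -0.06, and those of the G1/S genes 0.04 and -0.38.

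Transcriptional regulators of the cell cycle were called in both directions at 48 h, as were all tested genes. Whether each of them acts at the promoters of the members was not tested. Of 20 tested genes of DREAM, MuvB, B-MYB and E2F, 9 fell (45.0%) and 3 rose. The shares over all tested genes were 15.2% lower and 13.3% higher. MYBL2, which encodes B-MYB, fell from 45.5 ± 1.93 to 35.4 ± 2.29 FPKM (-0.35 ± 0.07, adjusted p = 0.00682), and the MuvB subunits LIN52 and RBBP4 fell by 0.28 and 0.18 on the log2 scale. The activating E2F1 (-0.56 ± 0.07) and E2F2 (-0.30 ± 0.08), their partner TFDP1 (-0.23 ± 0.04), the atypical E2F8 (-0.28 ± 0.07), the NF-Y subunit NFYB (-0.18 ± 0.04) and the pocket protein RBL1 (-0.49 ± 0.06) also fell. RBL2, the p130 protein of DREAM, rose from 11.4 ± 0.386 to 14.0 ± 0.341 FPKM (0.28 ± 0.05, adjusted p = 0.00581), as did RB1 (0.11 ± 0.03) and E2F7 (0.24 ± 0.06). The call of RB1 ended without any 1 control or 48 h library or 24 h replicate 2 (adjusted p up to 0.109), and that of E2F7 without control replicate 1 or 3 (up to 0.0733). Leaving out control replicate 1, control replicate 3, 48 h replicate 2 or 48 h replicate 3 ended that of E2F2 (up to 0.0832). For E2F8 these were control replicates 1 and 2 and 48 h replicates 2 and 3, left out singly (up to 0.0777), and for NFYB control replicates 1 and 3 and 48 h replicate 1 (up to 0.0613).

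The CDK inhibitor and arrest list had 11 tested genes, of which 6 were higher and 2 lower at 48 h, with a median of 0.30. Over all tested genes 13.3% were higher and 15.2% lower. CDKN1A, which encodes the p21 inhibitor, rose from 35.3 ± 1.59 to 49.2 ± 0.92 FPKM (0.47 ± 0.06, adjusted p = 0.000958) and CDKN1B, which encodes p27, by 0.25 ± 0.05. The stress and antiproliferative genes GADD45A (0.49 ± 0.11), GADD45B (0.47 ± 0.06), BTG1 (0.41 ± 0.07) and BTG2 (0.30 ± 0.06) rose as well, and SFN (-0.57 ± 0.11) fell. No single library, when left out, ended any of the calls named here at 48 h.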

How the data were processed

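The submitters' processing notes name build hg38 and the tools HISAT2, Subread, featureCounts and DESeq2. Not given in the sources used here are their versions and settings, the strand handling and which annotation was counted. The authors deposited FPKM for 36810 genes in 9 libraries, replicates kept apart, and 36724 were paired with a name. Fragments were recovered from the FPKM with GENCODE 29 exon lengths (20926 genes, 58.8% of those in GENCODE, whole to within 0.001 fragment) or the smallest fitting length (15882 genes).

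Genes with at least 1 FPKM in at least 3 libraries (13657) were tested on log2(FPKM + 1), a scale that understates changes of low genes, with limma 3.58.1 in R 4.3.3: 1 mean per group, all 9 libraries, eBayes with a trend, 6 residual degrees of freedom, two-sided, Benjamini-Hochberg adjustment over all genes tested, called under 0.05. Errors of FPKM are SD over 3 libraries and errors of log2 fold changes are standard errors. An exact permutation test of 3 against 3 libraries cannot go below 0.1 and was not used. The fit was also run on simulated data with a fixed spread and no library that stands apart. That run therefore cannot vouch for the calls made here.

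Members and lists were chosen with earlier results of these data known. Genes described with values were CCNB1, CDK1, PLK1, AURKA, AURKB, BIRC5, CDC20, TOP2A, MKI67, FOXM1, and the highest and lowest 48 h fold change of each subgroup; of other mitotic lists, the 3 highest and 3 lowest called, and the called regulators, of which 1 is not reported here. Every other member named was called, stands in a complex with one that was, or completes its subgroup, and was chosen with its values in view. Alternatives changed the pseudocount (0.1 or 0.5), the filter (none, or 5 FPKM), the scaling (median of ratios, or quantiles), the weights (per array, or by voom on recovered fragments) and the fit (without a trend, on 2 groups alone, or with a replicate block). Further ones left out each library, set a fold threshold and, added after seeing the data, removed the length trend. Promoters of CCNB1, CCNB2 and PLK1, which were to be shown, were replaced because a GENCODE 29 exon lies in the window.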

Additional observations from a re-analysis of the deposited data

Results flagged for a closer look

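The 24 h and 48 h shifts of 13 members differed by a test of the difference itself (limma, 48 h against 24 h, adjusted p under 0.05), each shift being taken against the same controls. These are 25.0% of the 52 tested members, below the 32.3% of all tested genes called in that comparison. On the log2 scale the 48 h shift minus the 24 h shift was -0.49 for SPC24, -0.26 for CKS1B, -0.21 for MAD2L1, -0.18 for CDCA8, -0.12 for KIF11 and -0.11 for ECT2. It was positive for the other 7, at 0.18 for DLGAP5, 0.19 for RACGAP1, 0.20 for CCNB1, 0.26 for HMMR, 0.26 for UBE2C, 0.29 for KIF4A and 0.36 for NEK2. SPC24, DLGAP5, HMMR, KIF4A, NEK2 and RACGAP1 were called in all 21 alternatives, the fold threshold aside. Of the 13, KIF11, ECT2, DLGAP5, RACGAP1, HMMR and KIF4A had 24 h values below all controls. Of the 52 tested members 18 did so, and of all tested genes 8.38%. The 13 were picked by a test that uses the same 24 h values, so this is a description only. At 24 h MAD2L1, CKS1B, CCNB1, UBE2C, NEK2, DLGAP5 and ECT2 were highest in the third library, the one that stands apart. For DLGAP5 and ECT2 the deviation of that library was small, at 0.04 and 0.03 on the log2 scale. RACGAP1 read 26.0 FPKM in both the first and the third 24 h library.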

How the results depend on the processing

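At 24 h, 0 members were called lower or higher in the main analysis. With array weights 3 were called lower (SPC25, HMMR and KIF18A), where 31 of all tested genes were. All other alternatives gave 0 members. At 48 h, the 13 lower calls became 8 with no filter and 8 with median-of-ratios scaling, and ranged from 6 to 18 when each library was left out. Over all tested genes the 2080 lower calls became 1515 and 1788 in the same settings, and ranged from 1371 to 2771. The 5 higher calls of members became 2 with no filter and 2 with no trend, and ranged from 1 to 5 with a library left out. Over all tested genes the 1811 higher calls became 1364 and 1786, and ranged from 1213 to 2361. For 48 h against 24 h, the 6 lower calls of members became 3 after quantile normalization and 2 in a fit to only the groups compared. Their range was 2 to 6 with a library left out. The 2227 lower calls over all tested genes became 2216 and 1742, with a range of 1487 to 2381. The 7 higher calls of members became 11 with the length trend removed, with a range of 5 to 7 with a library left out. The 2188 over all tested genes became 2324, with a range of 1498 to 2213. A minimum absolute log2 fold change of 0.5 left 0 calls in each of these 4 counts of members, since no member reached it. No call of a named gene changed sign in any alternative. Of the 48 h calls, 5 of 13 lower (CDCA8, ECT2, KIF11, KIF18A and SPC24) and 1 of 5 higher (NEK2) were made in all 21 alternatives other than that minimum, and of the 48 h against 24 h calls 1 of 6 and 5 of 7. The share of all called genes kept in this way was not counted. These counts are therefore not read as a trait of the members. Why calls were gained or lost in the alternatives was not tested. Whether the replicate numbers mark paired libraries is not settled by these values. Deviations of same-numbered libraries correlated at -0.06 to 0.24, and those of differently numbered libraries at -0.19 to 0.13. The highest value, 0.24, was that of 24 h replicate 3 with 48 h replicate 3, and the next highest same-numbered value was 0.12. Replicate 3 had lower values for long transcripts at both times, so the 0.24 cannot decide whether the numbers mark pairs. With the replicate number as a block, the member counts were 0 lower and 0 higher at 24 h, 11 and 5 at 48 h, and 6 and 8 for 48 h against 24 h. Over all tested genes that block gave 2007 and 1726 at 48 h, and 2203 and 2141 for 48 h against 24 h. In the 100 bases before the start, TTTGAA stood in 36.4% of member promoters against 2.71% of those of tested genes. With 3 libraries per group, a member that was not called may still have changed.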
